A study of Rattus norvegicus with 192 samples.

Results

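The transcripts that mark rat lung were read from the 16 Lung_Air arrays, 1 rat each, which were set against the Air arrays of 5 other tissues: 15 of blood, 16 of brain stem, 16 of heart, 16 of kidney and 17 of olfactory bulb. These 96 Air arrays are 50% of the arrays in all. The 4 times after exposure were pooled, and each lung group held 4 rats. Lung was compared with the mean of the 5 tissue means, so that each tissue counted equally, and with each tissue in turn.

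The study exposed adult male Sprague-Dawley rats, an outbred laboratory stock, in a whole-body chamber and took tissues 1, 3, 6 or 24 h later. PH3 rats breathed phosphine, a fumigant that inhibits the last enzyme of the respiratory chain, with 660 ppm given over 25 min, a product of 16500 ppm × min. Air rats, on which this account rests, had 0 ppm for the same 25 min. All rats were killed under ketamine and xylazine by exsanguination. Blood came from a heart stick and went through its own RNA kit, while solid tissues were frozen, ground and extracted whole. The 16 lung rats also gave all 15 blood and all 16 heart arrays, 15 of 16 brain stem arrays and 15 of 16 kidney arrays, but 5 of 17 olfactory bulb arrays.

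The gas exchange surface of the lung is lined by flat alveolar type 1 cells and by cuboidal type 2 cells, which secrete surfactant, a film of lipid and small proteins that keeps alveoli open. Airways are lined by secretory club cells and ciliated cells. Beneath both lies a dense capillary bed, held in an elastic mesh and patrolled by macrophages, and the transcription factor NKX2-1 sets the identity of the whole epithelium. A homogenate of the organ holds all of these, so fewer cells of a type and less RNA per cell cannot be told apart.

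Labelling started at the 3′ end of transcripts, and the deposited values are log2 intensities, so a difference of 1 is a factor of 2. Every array was most like an array of its own tissue. Control probe sets for nonspecific binding had a median of 2.69 in lung, 3.46 in blood and 2.66 to 2.91 in the 4 other tissues, so levels near 3 lie at the floor of the arrays and folds against them understate the difference. Array medians ran from 5.01 to 5.37. The upper quartile was 6.39 to 6.58 in blood and 7.29 to 7.59 in the other tissues, lung included, so blood levels were squeezed together. The labels do not say which arrays were normalized together, and this limits every level set across tissues here.

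Some arrays held high levels of genes typical of another tissue, and these genes were picked out after their values were seen. Where the transcripts came from was not tested. Scgb1a1 read 10.48 and 9.91 in the heart arrays of Rat382 and Rat355, against 3.97 or less in the other hearts, and Sftpc read 7.58 in the heart of Rat382. The heart of Rat340 held the liver genes Fabp1, Cps1 and Apoa1 at 11.90, 11.45 and 11.27. The lung of Rat340 held the keratins Krt4 and Krt13 of stratified epithelium at 10.67 and 10.58 and the skeletal muscle actin Acta1 at 12.30. These 3 genes read 9.22, 9.35 and 11.72 in the lung of Rat377 and 8.54, 8.65 and 11.37 in that of Rat353, and Acta1 read 11.39 in that of Rat355. The olfactory bulb of Rat400 held Cyp2f4 at 11.53 and Sec14l3 at 10.48, against medians of 5.41 and 4.61 over the 17 olfactory bulbs. The counts of probe sets against the other tissues were repeated without these arrays, and the counts within gene lists were not. Those repeats kept the heart of Rat354, with Fabp1 at 7.17 and Cps1 at 7.18. They also kept the lungs of Rat352, Rat382 and Rat394, with Acta1 at 10.78, 10.53 and 8.89. Ucp1, a gene typical of brown fat, read 3.21 to 11.70 (median 8.65) over the 16 lungs. It read 10.13 and 9.62 in the lungs of Rat354 and Rat382, which those repeats kept, so they do not leave lungs free of such genes. Genes are named by a rule on the size of their differences, and list members above each other tissue are named beyond it, chosen after their values were seen.

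Lung differed from the mean of the other tissues at most probe sets. Of 31042 tested, 11444 were higher in lung (36.9%) and 14564 were lower (46.9%), 26008 in all (83.8%), by limma at an adjusted p under 0.05. A median probe set read 0.10 lower in lung. Such a test asks little, since a gene high in any tissue shifts the mean of the others.

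A stricter test asked for a lung mean above each of the 5 tissue means by over 2-fold, and 542 probe sets passed it (1.75%). They named 360 genes through 420 probe sets, and 122 probe sets had no single gene name. Each gene below stands for its probe set with the highest tissue mean. On that footing 346 of 13438 genes lay above each other tissue (2.57%), 6148 were higher than the mean of the others (45.8%) and 5366 were lower (39.9%), with a median difference of 0.054 over all genes. That balance turned with the scaling: with array medians subtracted 5481 were higher and 6150 lower, with a median of -0.058, and after quantile normalization 5088 were higher and 5692 lower, with a median of -0.055. The distance from the lung mean to the next-highest tissue mean, called the gap here, ran from 1.26 to 9.57 among the 542 with a median of 2.0, and 115 had a gap over 3 log2 units, or 8-fold. In 464 of the 542, every lung array lay above all 80 other arrays, as it did in 1009 of all probe sets (3.25%). Near the threshold, a probe set with a gap of 1.43 passed at an adjusted p of 0.0494 and one with a gap of 1.38 missed it at 0.0506. Without the 3 heart arrays named above the count was 547, without the lungs of Rat340 and Rat355 it was 554, without these and the lungs of Rat353 and Rat377 it was 535, and without the olfactory bulb of Rat400 it was 544.

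Surfactant genes held the widest gap of all, that of Sftpc. Of 20 surfactant and alveolar type 2 cell genes measured, 18 were higher in lung than the mean of the other tissues, 1 was lower and 1 was not called, and 11 lay above each other tissue. Their median difference was 4.02, against 0.054 over all genes. Sftpc, which encodes the hydrophobic surfactant protein C, had levels of 13.46 to 13.70 (median 13.60) in lung and 2.80 to 7.58 (median 3.30) in the other 80 arrays. The SD over the lung arrays was 0.064 (n = 16), at levels close to 14.2, the highest value of any Air array, and how far the top of the scale limits this spread and the difference was not tested. The nearest other array was the heart of Rat382. Sftpc was 10.11 ± 0.14 (SE) above the mean of the other tissues and 9.57 above blood, the next tissue, which is 761-fold (adjusted p = 3.1e-65).

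The other surfactant proteins also had blood next to lung. Sftpa1, a collectin that binds microbes, ran at 12.34 to 12.90 (median 12.77) in lung and 2.61 to 4.93 (median 2.95) elsewhere. Sftpb, which spreads the lipid film, ran at 12.43 to 12.79 (median 12.65) in lung and 2.94 to 5.68 (median 3.24) elsewhere. No other array came near the lung arrays for either gene, and lung was 465-fold and 268-fold above blood. Sftpd, the other lung collectin, had a gap of 5.35 to blood.

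The start regions of 4 lung-marking genes, chosen after their values were seen, are shown as examples of alveolar and airway genes. The 300 bases from 250 before to 50 after the gene start are RefSeq's, build GRCr8. They lie at chr4:105917338-105917637 on the plus strand for Sftpb, chr16:17042014-17042313 on the plus strand for Sftpa1, chr1:215409637-215409936 on the minus strand for the club cell gene Scgb1a1, and chr20:4155636-4155935 on the minus strand for the type 1 cell gene Ager. Capitals mark CTNNAG, a core that NKX2-1 binds, its stricter form CTCAAG, the forkhead core TGTTTNC and the TATA box TATAAA, searched on both strands. CTNNAG reads the same on both strands and was counted once, and each CTCAAG lies within a CTNNAG.
Sftpb: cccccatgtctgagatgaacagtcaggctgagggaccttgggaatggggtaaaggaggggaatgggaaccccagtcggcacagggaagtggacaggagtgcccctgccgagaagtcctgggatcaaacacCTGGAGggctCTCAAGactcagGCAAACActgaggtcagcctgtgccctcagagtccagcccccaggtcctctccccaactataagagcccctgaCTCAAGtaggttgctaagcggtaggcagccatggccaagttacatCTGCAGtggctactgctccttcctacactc
Sftpa1: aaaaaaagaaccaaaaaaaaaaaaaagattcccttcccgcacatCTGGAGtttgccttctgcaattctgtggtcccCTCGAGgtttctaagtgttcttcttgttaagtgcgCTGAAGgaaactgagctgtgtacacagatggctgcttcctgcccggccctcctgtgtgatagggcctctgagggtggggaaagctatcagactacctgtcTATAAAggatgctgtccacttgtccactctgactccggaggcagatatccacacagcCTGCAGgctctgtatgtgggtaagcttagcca
Scgb1a1: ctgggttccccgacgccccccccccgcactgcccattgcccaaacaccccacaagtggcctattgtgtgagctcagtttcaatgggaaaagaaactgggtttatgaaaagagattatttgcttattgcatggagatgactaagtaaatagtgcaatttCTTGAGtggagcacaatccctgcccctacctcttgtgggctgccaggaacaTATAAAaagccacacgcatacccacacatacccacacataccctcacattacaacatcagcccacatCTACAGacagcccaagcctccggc
Ager: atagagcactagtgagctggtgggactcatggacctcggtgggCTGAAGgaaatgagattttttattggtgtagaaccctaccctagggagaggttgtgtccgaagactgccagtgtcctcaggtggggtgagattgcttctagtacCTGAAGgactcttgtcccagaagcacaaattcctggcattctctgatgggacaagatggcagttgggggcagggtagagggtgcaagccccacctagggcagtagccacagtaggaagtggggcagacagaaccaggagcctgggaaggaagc
The Sftpb sequence held 4 matches to the NKX2-1 core, 2 of them to its stricter form, and 1 to the forkhead core. Sftpa1 held 4 matches to the NKX2-1 core and 1 TATA box, Scgb1a1 held 2 matches, 1 of them to the stricter form, and 1 TATA box, and Ager held 2 matches. The NKX2-1 core stood in 80.3% of the 259 start regions given for lung-marking genes and in 78.3% of 11089 over all measured genes. The shares were 16.6% and 14.2% for its stricter form, 18.9% and 15.6% for the forkhead core, and 13.5% and 8.4% for the TATA box. These letters are a description of the sequences and say nothing of binding.

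Genes of surfactant handling came after the surfactant proteins. Lamp3, a membrane protein of lamellar bodies, the organelles that store surfactant, ran at 10.98 to 11.81 (median 11.28) in lung and 2.63 to 3.99 (median 2.97) elsewhere, 254-fold over blood. Slc34a2, the phosphate carrier of type 2 cells, ran at 11.58 to 12.10 (median 11.85) in lung and 6.34 to 7.54 (median 6.90) in kidney, the next tissue. Abca3, which pumps lipid into lamellar bodies, ran at 10.26 to 10.84 (median 10.47) in lung and 8.43 to 8.91 (median 8.79) in kidney. All 3 separated lung from every other array, but Abca3 by a gap of only 1.75.

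The remaining members above each other tissue were Lpcat1, which remodels surfactant phosphatidylcholine, with a gap of 2.46 to olfactory bulb, the mucin Muc1 with 1.39 to kidney, the calcium binder S100g with 3.96 to kidney, and Dram1, a lysosomal membrane protein, with 3.12 to kidney. Several genes used as type 2 markers were shared with kidney or blood. Napsa, the aspartic protease that processes pro-surfactant proteins, averaged 11.20 in lung and 11.37 in kidney, and the cathepsin Ctsh averaged 11.93 in lung and 12.30 in kidney. Neither passed the strict test. C5, a complement gene, was not called at 0.046 ± 0.19, being higher in kidney. The alarmin Il33 and lysozyme Lyz2 had every lung array above all others, with gaps of 0.70 to kidney and 0.85 to blood that missed the 2-fold minimum. The other Il33 probe set had a gap of 0.20 and overlapped, with a lowest lung array of 9.22 and a highest other array of 10.13. Pgc, the pepsinogen C gene that marks human type 2 cells, stayed at 2.69 to 3.24 (median 2.93) in lung, at the floor of the arrays, against 6.16 to 8.24 (median 7.23) in olfactory bulb, and was lower in lung than the mean of the others.

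**Figure D1:**
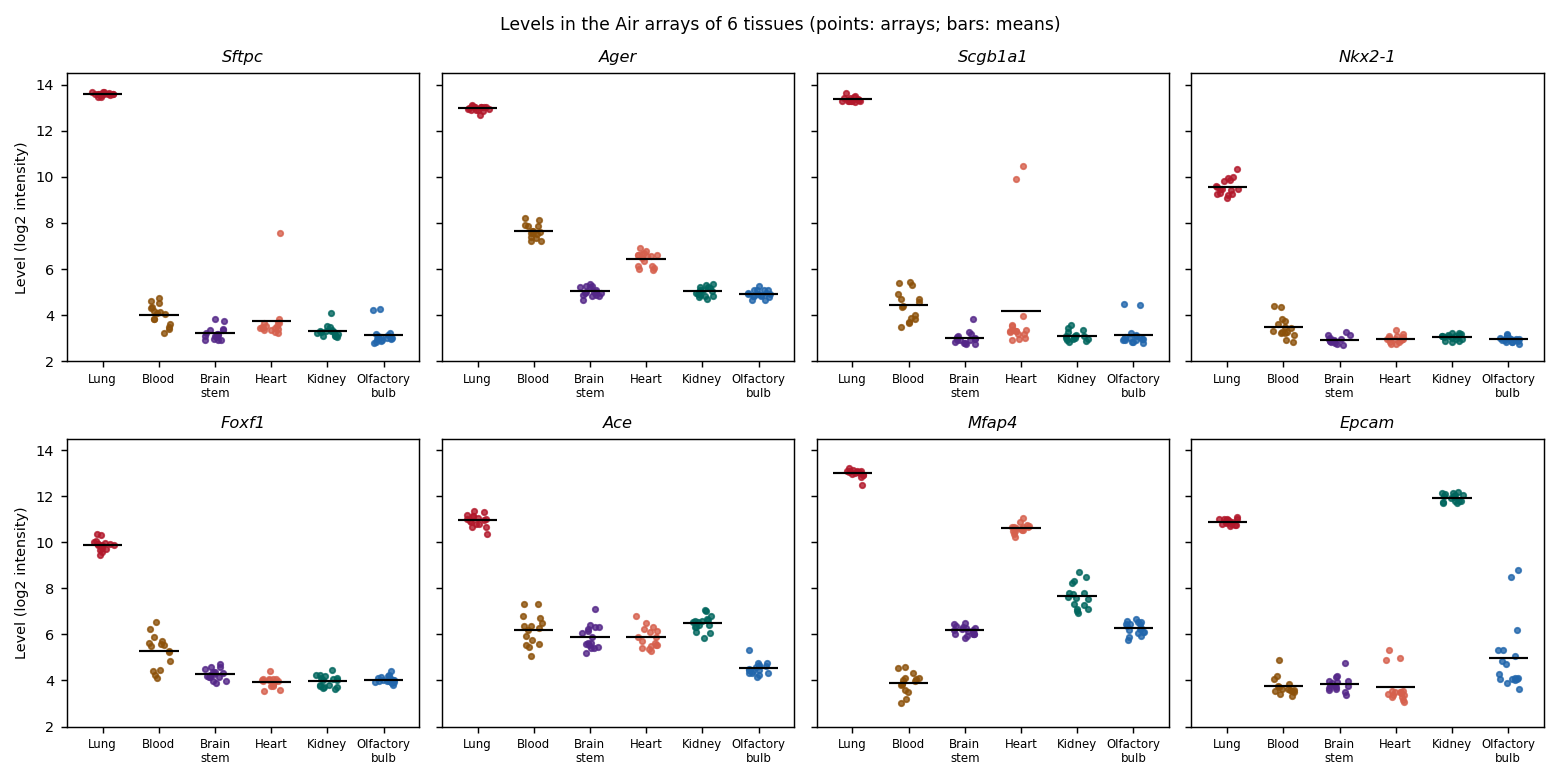
Levels (log2 intensity) of 8 genes in the Air arrays of 6 tissues, with 1 point per array and a bar at each mean. Sftpc, Scgb1a1 and Nkx2-1 lie at or just above the floor outside lung, apart from the hearts of Rat355 and Rat382 for Scgb1a1 and of Rat382 for Sftpc, Ager keeps an intermediate level in blood and heart, Mfap4 steps down from lung to heart, and Epcam is higher in kidney than in lung.

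All 17 type 1 cell genes measured were higher in lung than the mean of the other tissues, with a median difference of 4.16, and 10 lay above each other tissue. Ager, the receptor for advanced glycation end products and the classic type 1 marker, ran at 12.68 to 13.13 (median 13.01) in lung, 7.21 to 8.21 (median 7.62) in blood and 5.97 to 6.90 (median 6.56) in heart. The groups did not overlap, and the gap to blood was 5.33, or 40.1-fold (adjusted p = 8.7e-71). Aqp5, a water channel, ran at 10.73 to 11.58 (median 11.29) in lung and 3.14 to 6.77 (median 3.80) elsewhere, its highest other array being the olfactory bulb of Rat400. Gprc5a, an orphan receptor induced by retinoic acid, had a gap of 6.48, and Cldn18, a tight junction claudin whose lung isoform seals alveoli, had one of 6.17, both to blood.

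The other type 1 genes that passed had narrower gaps, to heart, olfactory bulb or blood. Emp2, a membrane protein of caveolae and adhesion, led heart by 3.34, and Cav2, a caveolin, led heart by 1.40. Pdpn, a mucin-type surface protein, and Akap5, an anchor of protein kinase A, led olfactory bulb by 3.69 and 3.71. Hopx, a homeodomain-only cofactor, led blood by 2.17, and Clic5, a chloride channel family member, led heart by 1.75 with overlapping arrays. The other 7 members did not pass. Cav1, the main caveolin, ran at 12.04 to 12.42 (median 12.24) in lung and 11.04 to 11.70 (median 11.32) in heart, and Vegfa, the endothelial growth factor, had a gap of 0.78 to heart. The keratin Krt7 averaged 9.79 in lung and 9.87 in kidney. Igfbp2, Spock2 and Col4a4 were highest in olfactory bulb, brain stem and kidney, and the sodium channel subunit Scnn1g led kidney by 0.38.

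Airway secretory genes were split. Of 17 measured, 13 were higher in lung than the mean of the others, 4 were lower and 7 lay above each other tissue. Scgb1a1, the club cell secretoglobin, ran at 13.26 to 13.64 (median 13.32) in lung and 2.74 to 10.48 (median 3.12) elsewhere, and the hearts of Rat382 and Rat355 were the only other arrays above 6. Its gap was 8.94 to blood, 493-fold (adjusted p = 6.6e-37). Scgb3a1, a secretoglobin of larger airways, ran at 8.94 to 11.77 (median 10.51) in lung and up to 10.18 in a heart array, so the groups overlapped.

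Cyp2f4 and Cyp4b1, oxidases that club cells use on inhaled chemicals, lay above each other tissue. Cyp2f4 ran at 9.31 to 11.59 (median 9.91) in lung and 4.12 to 11.53 (median 5.41) in olfactory bulb, where Rat400 gave the highest value, and Cyp4b1 ran at 11.23 to 11.81 (median 11.45) in lung and 8.25 to 9.78 (median 8.79) in heart. Pon1, a lipoprotein-bound esterase, passed with a gap of 2.82, but a heart array reached 11.38. The other of its 2 probe sets was lower in lung, at the floor with 2.87, and highest in blood at 3.85. The antimicrobial proteins of the airway lining Bpifa1 and Bpifb1 passed with gaps of 4.66 and 2.29 and spread widely between lungs, Bpifa1 over 5.64 to 12.03 (median 9.09). Among airway mucins, Muc5b had a gap of 0.91 that missed the strict test, and Muc5ac, the goblet cell mucin, stayed at 3.21 to 3.74 (median 3.33) in lung. Muc5ac, Tff2, Upk3a and Reg3g, genes of goblet and other rare secretory cells, were lower in lung than the mean of the others, all with lung levels near the floor. After quantile normalization 1 gene of this list was lower, in place of these 4. Tff2 turned higher with blood left out of the mean and Upk3a with kidney left out, both by a tiny margin. Cldn10 turned lower with blood or with heart left out. Aldh1a1, Hp and Cldn10 were highest in kidney or blood, the flavin monooxygenase Fmo2 had a gap of 1.39 to kidney, and Spdef, the goblet cell factor, one of 0.95; none of these passed.

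Of 11 ciliated cell genes, 10 were higher in lung and 1 was not called, with a median difference of 2.19, and 3 lay above each other tissue. Those were Foxj1, the master factor of motile cilia, the axonemal kinase Ak7 with a gap of 3.17, and the radial spoke protein Rsph1 with 1.91. Brain stem was next for Ak7, Tekt1 and Tppp3, which build or bind ciliary and other microtubules. The mean level of the 11 in each lung, relative to their means over all lungs, ran from -0.42 to 1.17, highest in Rat355.

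None of the 8 airway basal cell genes lay above each other tissue. The basal keratins Krt15, Krt14 and Krt5 were higher than the mean of the others by 1.73 ± 0.21, 1.06 ± 0.17 and 0.69 ± 0.16, yet their lung medians were 4.71, 4.29 and 3.70, and Krt5 ran at 3.28 to 7.35 (median 3.70). The mean of the 8 genes in each lung, relative to their lung means, was highest in Rat340, at 1.35. Without the lungs of Rat340, Rat353, Rat355 and Rat377 the differences of Krt15, Krt14 and Krt5 were 0.91, 0.35 and 0.045, and that of Krt5 was not called (adjusted p = 0.651, limma). The water channel Aqp3 and Dapl1 were lower, both being highest in kidney, and both turned higher with kidney left out of the mean, by 0.48 and 0.15, of which 0.15 was not called. Genes that all epithelia share separated lung from kidney poorly. The 19 junction and keratin genes were all higher in lung than the mean of the others, by a median of 3.44, but by a median of 0.30 against kidney alone, and 3 lay above each other tissue. Epcam, the adhesion molecule of simple epithelia, ran at 10.69 to 11.09 (median 10.91) in lung and 11.69 to 12.16 (median 11.97) in kidney with no overlap. Krt19, a keratin of simple epithelia and mesothelium, ran at 10.98 to 11.53 (median 11.24) in lung and 6.60 to 9.38 (median 8.20) in kidney, and the claudin Cldn7 led kidney by 0.93.

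Of 25 transcription factors of lung identity measured, 24 were higher in lung, 1 was lower and 10 lay above each other tissue, with a median difference of 2.84. Nkx2-1, which drives surfactant genes, ran at 9.10 to 10.34 (median 9.48) in lung and 2.71 to 4.40 (median 2.99) elsewhere. All 80 other arrays lay near the floor, and the gap was 6.10 to blood, 68.5-fold (adjusted p = 6.5e-72). Tbx4, the T-box factor of lung mesenchyme, ran at 9.06 to 9.99 (median 9.60) in lung and 2.68 to 4.15 (median 3.12) elsewhere. Foxf1, the forkhead factor of lung mesenchyme and capillaries, and Foxa2, the forkhead factor of gut-derived epithelium, had gaps of 4.61 and 4.78 to blood.

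Further factors above each other tissue were Klf5 with a gap of 3.37, the fibroblast factor Tcf21 with 2.11, Tbx2 with 1.97, Elf5 with 1.48, the endothelial factor Sox17 with 1.45, and Hopx. Tbx2 and Sox17 each had a probe set that was lower in lung than the mean of the others. Both of these were near the floor in lung, at 2.95 and 3.31, and highest in blood, at 4.56 and 5.17. Factors that lung shares with heart did not pass. Tbx5 ran at 6.75 to 8.76 (median 8.19) in lung and 7.0 to 8.90 (median 8.31) in heart, and Meox2 and Gata6 were -0.31 and -1.06 relative to heart. Cebpa led kidney by 1.45 and missed the test (adjusted p = 0.056), and Foxa1 read 2.97 to 4.06 (median 3.48) in lung, near the floor. Sox9, a factor of the budding lung tip, was lower at 2.54 to 2.95 (median 2.69), at the floor. After quantile normalization 0 factors of this list were lower. Etv5, Elf3, Ehf, Foxp1, Foxp2, Sox2 and Tbx3 were higher than the mean of the others and within 2-fold of, or below, the highest other tissue, though 1 of 3 Tbx3 probe sets passed.

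Hox genes mark position along the body. Of 21 measured, 6 were higher in lung, 13 were lower and 2 were not called, and none lay above each other tissue. Hoxa5, which the lung mesenchyme needs, ran at 9.50 to 10.35 (median 10.01) in lung and 8.69 to 10.48 (median 9.44) in brain stem, and Hoxa2 also had brain stem next, at a gap of 0.053. Hoxd8 and Hoxd9 averaged 3.91 and 3.95 in lung, against 10.99 and 9.01 in kidney, and Hoxc4 averaged 3.17 in lung against 7.99 in brain stem.

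Endothelial genes were highest in lung without exception among the 18 measured, and 13 of them lay above each other tissue. Their median difference from the mean of the others was 3.33, and heart was next in 13. Tmem100, a membrane protein of BMP signalling in arteries, ran at 10.93 to 11.83 (median 11.30) in lung and 3.85 to 8.22 (median 6.76) elsewhere. Plvap, which forms the diaphragms of fenestrated endothelium, ran at 10.90 to 11.33 (median 11.10) in lung and 8.76 to 9.49 (median 9.17) in kidney. Calcrl and Ramp2, which together form the adrenomedullin receptor, ran at 8.79 to 10.56 (median 10.06) and 11.30 to 12.06 (median 11.89) in lung, against 5.14 to 7.12 (median 6.49) and 9.59 to 10.28 (median 9.87) in heart. None of these genes overlapped between lung and any other array. The others above each other tissue were Kdr, Tek, Vwf, Cldn5, Egfl7, Esam, Sox17, Eng and Cd93, receptors, junction proteins and adhesion molecules of the vessel lining.

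All 19 genes of lung capillaries and vessels were higher in lung than the mean of the others, and 9 lay above each other tissue. Prx, a scaffold protein of myelin that lung endothelium also makes, ran at 9.38 to 10.05 (median 9.82) in lung and 3.71 to 8.42 (median 5.10) elsewhere. Clec14a, an endothelial lectin, led heart by 3.11, and Gja5, the connexin of arteries, led heart by 2.88. Apln, Icam2, Gja4, Kit, Foxf1 and Tbx2 made up the rest. Hpgd, which inactivates prostaglandins during passage through the lung, ran at 8.25 to 9.87 (median 9.24) in lung and 7.88 to 9.63 (median 8.34) in kidney and did not pass.

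The enzymes and receptors that set vessel tone gave 20 of 24 higher in lung, 2 lower and 2 not called, and 8 above each other tissue. Ace, the angiotensin-converting enzyme of pulmonary endothelium, ran at 10.34 to 11.36 (median 11.0) in lung and 4.16 to 7.33 (median 5.88) elsewhere. Lung arrays were all above the others, and the gap to kidney was 4.46, 22.0-fold (adjusted p = 1.7e-38). Acvrl1, the endothelial BMP9 receptor, ran at 10.52 to 11.05 (median 10.69) in lung and led heart by 3.38. Edn1 and Ece1, which make endothelin, Gucy1a1, a subunit of the nitric oxide receptor, and Npr1, a natriuretic peptide receptor, also passed. Vipr1, a receptor for vasoactive intestinal peptide that was outside the lists and entered by the size of its gap, ran at 11.04 to 11.41 (median 11.22) in lung and 3.56 to 6.93 (median 5.0) in heart.

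**Figure D2:**
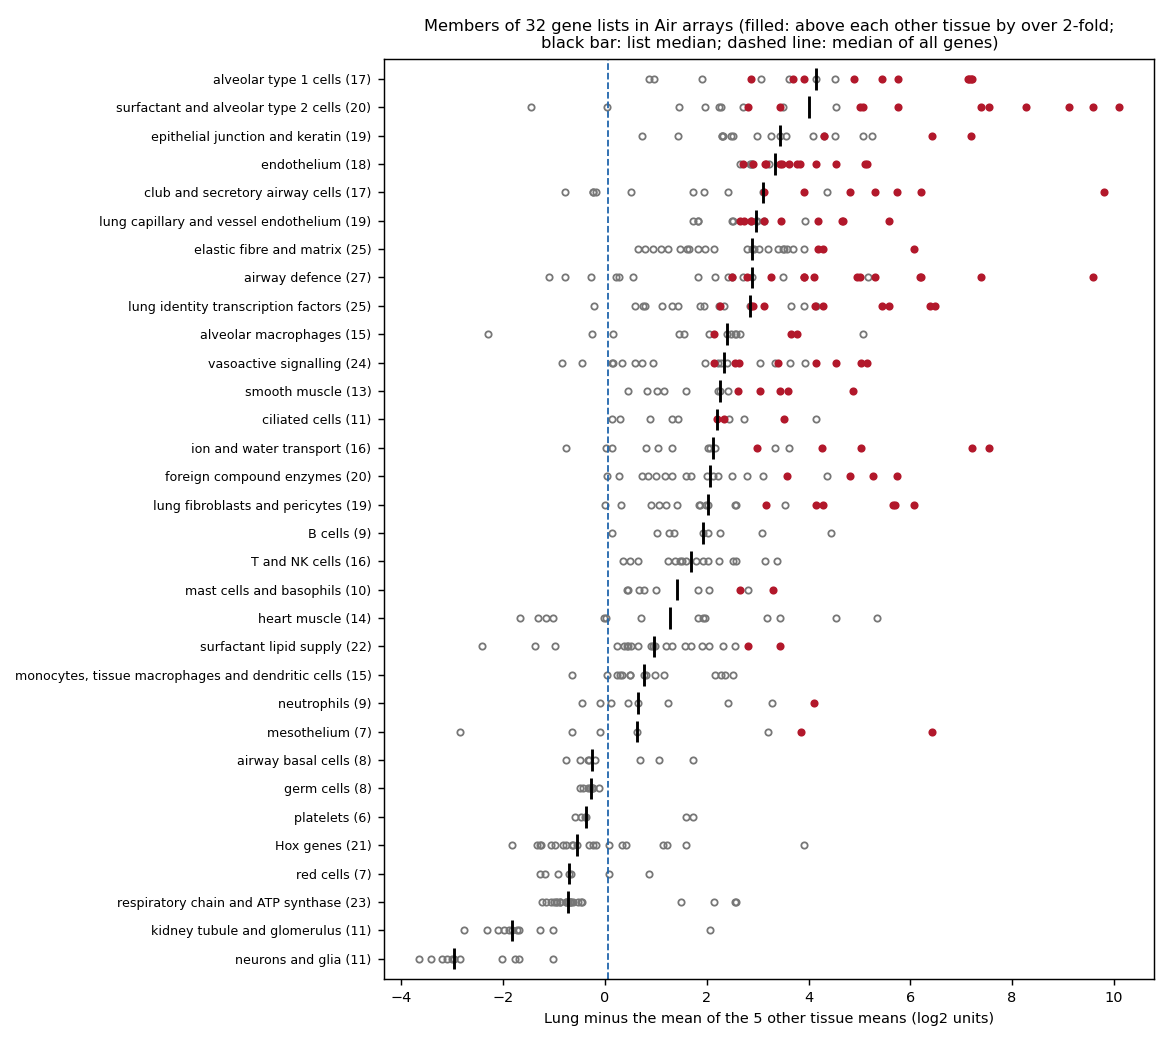
Lung minus the mean of the 5 other tissue means (log2 units) for each measured member of 32 gene lists, with lists ordered by their median and the number measured in brackets. Filled points are members above each other tissue by over 2-fold, black bars are list medians, and the dashed line at 0.054 is the median of all genes. The type 1 and type 2 cell lists have the highest medians (4.16 and 4.02), and the neuron and kidney lists the lowest (-2.98 and -1.83).

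Among fibroblast and pericyte genes 18 of 19 were higher in lung than the mean of the others, 1 was not called and 6 lay above each other tissue. Mfap4, a microfibril protein that binds elastin, ran at 12.48 to 13.22 (median 13.03) in lung and 10.21 to 11.04 (median 10.65) in heart. Col13a1, a membrane collagen of alveolar fibroblasts, ran at 7.85 to 9.44 (median 9.07) in lung and 2.55 to 3.86 (median 3.36) elsewhere. Itga8, an integrin subunit, had a gap of 3.36 to kidney, and Postn, a matricellular protein, one of 3.39 to heart. The arrays of lung and other tissues did not overlap for these 4 genes. Tcf21 and Higd1b, a pericyte gene, were the other members that passed.

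Elastic fibre and matrix genes were high in heart as well. All 25 were higher in lung than the mean of the others, by a median of 2.89, but by a median of 0.44 against heart, which was next in 21, and 3 lay above each other tissue. These were Mfap4, Ltbp2, a latent TGF-β binding protein with a gap of 3.09, and Lox, the enzyme that cross-links elastin, with 2.22. Col3a1 ran at 12.30 to 12.78 (median 12.47) in lung and 11.88 to 12.42 (median 12.10) in heart, and Mfap5 led heart by 0.12. Smooth muscle genes were higher in 13 of 13, and 5 lay above each other tissue: Actg2, Cnn1, Tagln, Myh11 and Mylk, contractile proteins with gaps of 2.98, 2.24, 1.88, 1.75 and 1.62.

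Mesothelium, which covers lung and heart alike, gave 4 of 7 genes higher, 2 lower and 1 not called. Over all genes 45.8% were higher and 39.9% lower, so counts from so few genes say little. Upk1b, a tetraspanin, ran at 7.85 to 9.63 (median 8.43) in lung and 5.18 to 7.18 (median 6.32) in heart and passed, as did Krt19, while Msln had a gap of 1.32 to heart that did not. Calb2 was lower in lung, at 3.46 against 9.78 in olfactory bulb, and so was Wt1, at 4.20 against 7.15 in heart.

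Alveolar macrophages, which clear particles and spent surfactant, were read from 15 genes. Of these 12 were higher, 2 were lower, 1 was not called and 3 lay above each other tissue, with a median difference of 2.39. The mean of the 15 genes in each lung, relative to their lung means, ran from -0.50 to 0.55, highest in Rat340. Gpnmb, a lysosomal glycoprotein, ran at 9.79 to 10.73 (median 10.22) in lung and 4.92 to 7.68 (median 6.49) elsewhere. Mrc1, the mannose receptor, led heart by 1.61, and Olr1, a receptor for oxidized lipoprotein, passed too. Plet1 led kidney by 0.86 and the lipase Lpl was -1.61 relative to heart, its highest tissue. None of 15 genes of monocytes, tissue macrophages and dendritic cells passed, although 13 were higher. RT1-Da, an MHC class II chain, averaged 11.44 in lung and 11.19 in blood, Cd14, an endotoxin co-receptor, led blood by 1.30, and Cd74, the invariant chain of MHC class II, had every lung array above all others at a gap of 0.63 to blood.

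Lymphocyte and neutrophil genes placed lung below blood and above the rest. B cell genes were higher than the mean of the others in 8 of 9, by a median of 1.93, but -1.62 relative to blood. T and NK cell genes were higher in 16 of 16, by a median of 1.69, and -1.87 relative to blood. Prf1, the pore protein of killer cells, ran at 7.02 to 9.85 (median 9.07) in lung and 9.60 to 10.88 (median 10.14) in blood. Jchain, which links antibody chains in plasma cells, ran at 8.09 to 9.90 (median 9.29) in lung and 6.03 to 8.78 (median 7.83) in blood and did not pass. Neutrophil genes were -2.60 relative to blood by the median, and S100a8 ran at 6.27 to 9.16 (median 8.06) in lung and 10.12 to 11.31 (median 10.59) in blood.

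Lcn2, an iron-sequestering protein of neutrophils that airway epithelium also secretes, was the member of that list above each other tissue, at 8.66 to 11.50 (median 10.21) in lung and 3.72 to 8.89 (median 6.24) elsewhere. Mast cell and basophil genes were higher in 10 of 10, by a median of 1.42. Kit, the receptor of mast cells that endothelium also carries, and the factor Gata2 passed with gaps of 2.44 and 2.16. The other of 2 Gata2 probe sets was lower in lung, near the floor at 3.18, and highest in blood at 4.62. The mast cell protease Mcpt1 had a gap of 1.47 that did not pass.

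Red cell and platelet genes were far below blood in lung. Red cell genes were -6.0 and platelet genes -4.26 relative to blood by the median. Pf4, a platelet chemokine, averaged 9.35 in lung and 12.24 in blood, Alas2, of heme synthesis, averaged 8.93 in lung and 13.29 in blood, and Slc4a1, the anion exchanger of red cells, averaged 5.96 in lung and 11.97 in blood. The part of residual blood in the lung levels of leukocyte genes was not tested.

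**Figure D3:**
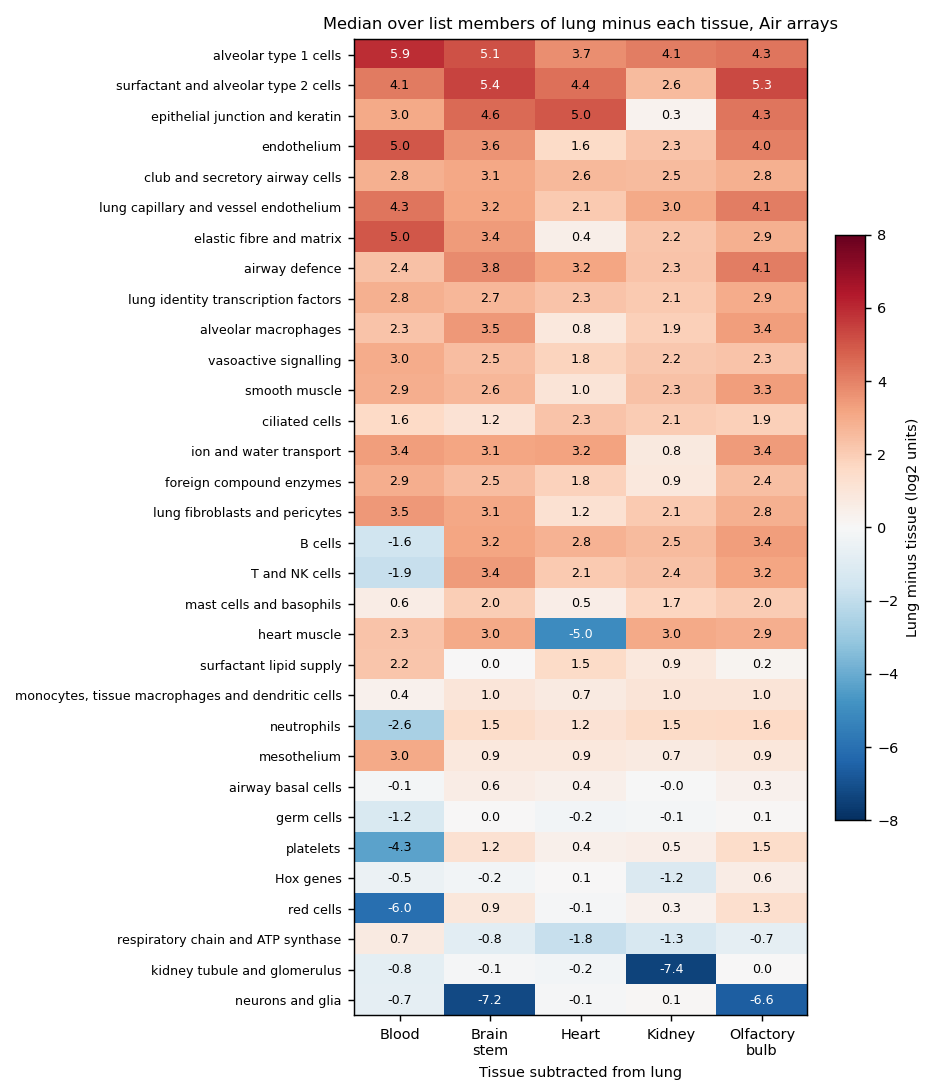
Median over the members of each list of lung minus each other tissue (log2 units, red where lung is higher), with lists ordered as by their difference from the mean of all 5. Kidney is close to lung for epithelial junction genes (0.30) and heart for elastic fibre and matrix genes (0.44), while T and NK cell genes are lower in lung than in blood (-1.87).

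Ion and water transport genes were higher in 13 of 16, lower in 1 and not called in 2, and 5 lay above each other tissue. Slc6a14, an amino acid carrier, ran at 6.86 to 8.56 (median 7.86) in lung and 2.39 to 3.29 (median 2.72) elsewhere, all at the floor. Scnn1a, a subunit of the sodium channel that clears alveolar fluid, ran at 7.59 to 8.91 (median 8.50) in lung and 5.60 to 7.14 (median 6.47) in kidney. The chloride channel Ano1, Aqp5 and Slc34a2 passed as well. Enzymes that act on foreign compounds were higher in 19 of 20 and above each other tissue in 4. Cyp2a3, a P450 of airway and nose, ran at 7.06 to 10.56 (median 8.96) in lung and 3.36 to 10.98 (median 4.60) in olfactory bulb, where Rat400 was highest. Sult1a1, a sulfotransferase, led kidney by 1.61.

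Of 22 genes that supply surfactant lipid, 19 were higher than the mean of the others and 3 were lower, by a median of 0.97, and Abca3 and Lpcat1 were those above each other tissue. Scd, a desaturase, led brain stem by 0.53, and Abca1, a lipid exporter, was -0.02 relative to olfactory bulb. Elovl6, an elongase, was lower in lung, at 4.16 to 6.17 (median 4.45) against 8.49 to 8.99 (median 8.79) in olfactory bulb.

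Airway defence genes were higher in 24 of 27 and lower in 3, and 13 lay above each other tissue. Retnla, a cysteine-rich secreted protein, ran at 8.66 to 11.91 (median 10.84) in lung and 3.11 to 7.98 (median 3.80) elsewhere with no overlap. C3 and Cfb of complement, the endotoxin receptor Tlr4, the neutrophil attractant Cxcl1 and the cytokine Il18 passed alongside the collectins, Lcn2, Bpifa1, Bpifb1, Scgb3a1 and Muc1. Genes of the respiratory chain and ATP synthase went the other way, with 19 of 23 lower and 4 higher and a median of -0.72, against 0.054 over all genes. The 4 that were higher were Cox4i2, the subunit of lung and hypoxic cells, with a gap of 0.82 to heart, and Cox6a2, Cox7a1 and Cox8b, the muscle subunits, which averaged 8.18, 8.14 and 9.41 in lung and 13.06, 10.15 and 13.05 in heart.

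Genes outside the lists also had wide gaps. Defb4, a beta-defensin, ran at 11.67 to 12.69 (median 12.57) in lung and 2.87 to 5.34 (median 3.30) elsewhere. Pla2g1b, a secreted phospholipase, and Chia, an acidic chitinase, had gaps of 6.72 and 6.49 to blood. Sec14l3, a lipid transfer protein, had a gap of 6.32 to olfactory bulb, the annexin Anxa8 one of 6.27, the ribonuclease Rnase3 one of 5.44, the collagen Col6a5 one of 5.04, the neuropeptide Npw one of 4.93 and the ciliary protein Cfap144 one of 4.88. The chemokine Cxcl3 had the second widest gap, 9.01, and lung levels of 12.36 to 12.63 (median 12.49), but its probe sets disagreed. Of 5, 2 passed, with gaps of 9.01 and 6.44, and the other 3 averaged 4.95 to 5.08 in lung, so the level given for this gene depends on the probe set.

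Over the 96 Air arrays, the levels most like those of Sftpc were those of Sftpa1 (r = 0.992), Defb4 (0.991), Cxcl3 (0.991), Pla2g1b (0.989), Sftpb (0.987) and Lamp3 (0.987). These values describe the contrast of lung with the rest, which all 96 points share. In the RefSeq table of GRCr8, 15 pairs of lung-marking genes were direct neighbours on a chromosome. How many such pairs the same number of randomly drawn genes would give was not tested. The count is therefore a description and says nothing of clustering. Pairs included Bmp1 and Sftpc, Mbip and Nkx2-1, Tbx2 and Tbx4, Kdr and Kit, C2 and Cfb, Pon1 and Pon3, and the run Bpifa1, Bpifa5 and Bpifb1.

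Neuron and kidney genes were mostly lower in lung. All 11 neuron and glia genes were lower, by a median of -2.98, and Snap25, of synaptic vesicle release, ran at 3.08 to 5.44 (median 3.53) in lung and 12.55 to 12.91 (median 12.66) in brain stem. Of 11 kidney genes 10 were lower, at -7.41 relative to kidney by the median, and Umod, the uromodulin of the loop of Henle, ran at 2.82 to 3.54 (median 3.08) in lung and 12.49 to 12.83 (median 12.65) in kidney. Lrp2, the endocytic receptor megalin, was the kidney gene higher in lung than the mean of the others, at 7.37 to 8.80 (median 8.04) in lung and 11.70 to 12.03 (median 11.86) in kidney. Of 8 germ cell genes, 7 were lower, by a median of -0.27 over the list, but their median level in lung was 3.03, near the floor. The list's median lung difference was -1.21 against blood, and it lay between -0.22 and 0.068 against the other 4 tissues.

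Several heart muscle genes were well above the floor in lung. Of 14, 8 were higher than the mean of the others, 4 were lower and 2 were not called, against 45.8% higher and 39.9% lower over all genes. All 14 lay below heart, by a median of -5.0. Myl7, the atrial myosin light chain, ran at 9.38 to 11.96 (median 10.43) in lung and 11.72 to 12.95 (median 12.68) in heart, and Myh6 ran at 8.46 to 11.67 (median 9.53) in lung and 12.97 to 13.29 (median 13.11) in heart. The other 2 probe sets of Myh6 averaged 5.75 and 4.62 in lung, and the dimmer of them was lower in lung than the mean of the others. Tnni3, cardiac troponin I, ran at 7.13 to 10.04 (median 8.37) in lung and 12.62 to 12.94 (median 12.85) in heart. Rat pulmonary veins carry a sleeve of cardiac muscle. Its part in these levels was not tested. The mean of the 14 genes in each lung relative to their lung means ran from -1.34 to 1.82, highest in Rat340, and Nppa, the atrial natriuretic peptide gene, ran from 3.98 to 11.73.

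Few transcripts were scarcer in lung than in each other tissue. By the mirror of the strict test 9 probe sets passed (0.029%), of which Fn3k, Clcn4, Tpd52l1, Adhfe1, Tuba4a and Mapk8ip1 are named and 3 are not. With each gene read from its probe set with the highest tissue mean, 3 of 13438 genes passed. Not all of these names therefore rest on that probe set. Fn3k, a kinase that removes sugar adducts from proteins, ran at 3.86 to 4.50 (median 4.22) in lung and 6.60 to 9.13 (median 7.21) elsewhere. Tuba4a, an alpha-tubulin, ran at 8.20 to 8.87 (median 8.57) in lung and 9.83 to 11.70 (median 10.93) elsewhere. Lung arrays lay below all others for both.

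The tissue nearest to lung differed from marker to marker. Heart was next for 184 of the 542 probe sets (33.9%), blood for 143 (26.4%), kidney for 123 (22.7%), brain stem for 47 (8.67%) and olfactory bulb for 45 (8.30%). The median gap was 1.93 where heart was next and 2.33 where blood was next. Blood also had the brightest nonspecific controls. Without blood in the comparison 985 probe sets passed, without heart 943, without kidney 855, without brain stem 586 and without olfactory bulb 585.

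Lung-marking probe sets had a median SD of 0.26 over the 16 lungs, against 0.18 over all probe sets. The genes with the lowest SD among them were Sftpc, near the top of the scale, with an SD of 0.064, Cxcl3, Synm and Niban2, a regulator of stress signalling, with 0.077, 0.092 and 0.095. The most variable gene was Bpifa1, with an SD of 2.02 and levels of 5.64 to 12.03 (median 9.09), highest in Rat340 and Rat355. Mcpt10, a mast cell protease, ran at 2.90 to 7.30 (median 5.55), and the calcium binder S100g at 7.33 to 10.34 (median 9.77). Aoc1, which degrades histamine, ran at 6.74 to 9.45 (median 8.80) and the mitotic kinase Aurkb at 5.64 to 8.12 (median 6.30). Synm, an intermediate filament protein of muscle, had 3 probe sets, of which 1 passed and 1 was lower in lung. The lower one averaged 3.52 in lung and was highest in blood, at 5.94.

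**Figure D4:**
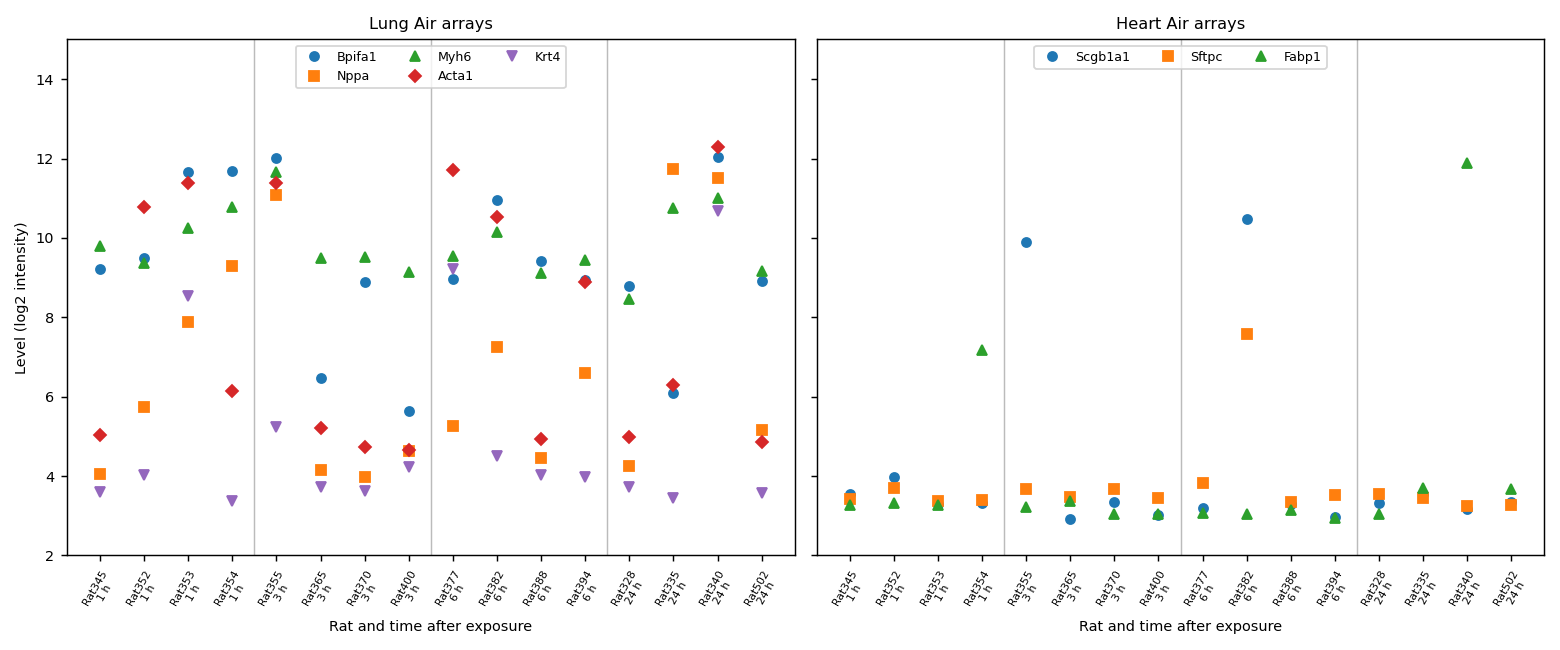
Levels (log2 intensity) by rat, ordered by time after exposure, of 5 genes in the 16 lung Air arrays (left) and 3 genes in the 16 heart Air arrays (right). The lungs of Rat340 and Rat355 stand high for Bpifa1, Nppa and Acta1, with Rat335 highest for Nppa at 11.73 and Rat377 and Rat353 also high for Acta1, and the hearts of Rat355, Rat382 and Rat340 hold Scgb1a1 or Fabp1 far above the others.

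Some markers differed between times after the air exposure. The difference of lung from the other tissues varied between the 4 times in 1.23% of probe sets, 29 of them among the 542, and the level within lung varied in 1882 (6.06%), 51 of them among the 542. Slc6a14 stood 4.66, 4.61, 5.42 and 5.41 above the mean of the others at 1, 3, 6 and 24 h (adjusted p = 4.4e-06). Nkx2-1 in lung averaged 9.63, 10.03, 9.35 and 9.27 at those times (adjusted p = 0.01), highest at 3 h. Sftpc was not called, at 13.58, 13.55, 13.63 and 13.63 (adjusted p = 0.74).

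The genes with the smallest p between Air times within lung were Ttr, the thyroxine carrier transthyretin, with 6.04 at 1 h and 3.36 at 3 h, Nit2, Mgst3 and Pgm2l1. RNA quality moved with time. The 3′ minus 5′ difference of the control probe sets averaged 0.217 at 1 h, 0.445 at 3 h, 0.191 at 6 h and 0.139 at 24 h in lung, 4 rats each. With that difference as a covariate 201 differences from the other tissues and 1 difference within lung were called, and without Rat355 198 and 794 were. Leaving out 1 lung at a time gave 794 to 2366 calls within lung.

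The PH3 rats are separate animals, and most of the same probe sets marked lung in them. Lung of PH3 rats lay above each other tissue of PH3 rats in 1.54% of probe sets, and 455 were shared with Air rats, which is 95.2% of the PH3 calls and 83.9% of the Air calls. All 542 had a positive gap in PH3 rats. They had been chosen for gaps of at least 1.26 in Air rats, so a positive gap asks little. Sftpc had a gap of 9.47 in PH3 rats and 9.57 in Air rats, Ager one of 5.29 in PH3 rats and 5.33 in Air rats, and Ace one of 4.37 in PH3 rats and 4.46 in Air rats.

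**Figure D5:**
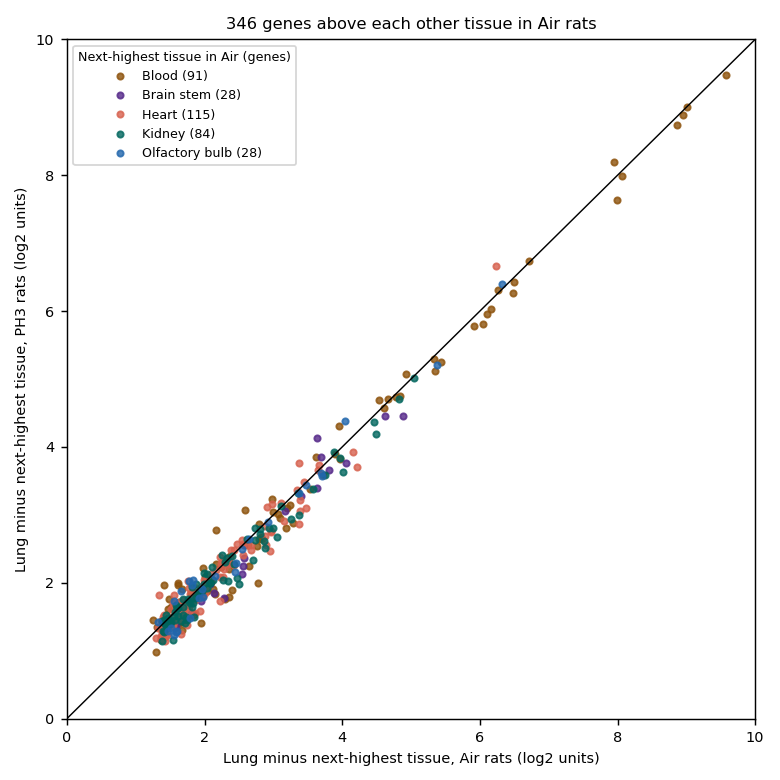
Lung minus the next-highest tissue (log2 units) in Air rats (x axis) and in PH3 rats (y axis) for the 346 lung-marking genes, with 1 point per gene, coloured by the next-highest tissue in Air rats, and the line of equal gaps. Gaps in PH3 rats run from 0.98 to 9.47, so all 346 points lie above 0.

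Within lung, PH3 minus Air reached 731 probe sets higher (2.35%) and 586 lower (1.89%) at 1 h, 1820 higher (5.86%) and 1251 lower (4.03%) at 3 h, and 0 at 6 and 24 h. Among the 542 lung-marking probe sets 34 were higher and 37 lower at 1 h, and 3 h gave 46 and 19. Their median shift was -0.058 at 1 h and 0.022 at 3 h, against -0.0094 and -0.0045 over all probe sets. None of the 20 type 2 cell genes was called at either time, but at the shares called over all probe sets few of 20 genes would be, so this count says little. At 1 h Sox17 rose by 0.72 ± 0.12 and Gata2 by 0.88 ± 0.14, while Kit changed by -1.04 ± 0.21 and Meox2 by -1.15 ± 0.22 (SE, adjusted p from 0.00025 to 0.002 by limma). At 3 h Actg2 rose by 1.07 ± 0.24, Lox by 0.91 ± 0.20, Pla2g1b by 0.59 ± 0.17 and Cav2 by 0.47 ± 0.10, while Nkx2-1 changed by -0.43 ± 0.13 and Gja5 by -0.48 ± 0.11 (SE, adjusted p = 0.039 and 0.0089 by limma). With the 3′ minus 5′ difference as a covariate, 4 probe sets in all were called at 3 h in place of 3071. The 3 h values of the genes named above are without it. That difference was 0.095 to 0.247 in the PH3 lungs at 3 h and 0.343 to 0.521 in the Air lungs. The groups did not overlap, so exposure and RNA quality cannot be told apart at that time. Leaving out 1 lung array at a time gave 769 to 1488 calls at 1 h, lowest without the PH3 lung of Rat343, and 1356 to 3265 at 3 h, lowest without the PH3 lung of Rat368.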

How the data were processed

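The authors deposited log2 intensities that, per the submitters' processing notes, came from Partek and RMA, whose versions the sources used here do not give. RMA corrects background, quantile normalizes arrays and combines a set's probes. The set of arrays that shared a normalization is not given in the labels. Of 31139 probe sets, 97 are controls, and the other 31042 were all tested, dim ones included. The platform annotation gave 19063 of them 1 gene, 572 several and 11407 none here, and 13438 genes resulted. RefSeq's GRCr8 table held 18983 of those probe sets' genes, and no symbol changed. A gene with several probe sets was represented by the one with the highest of the 6 Air tissue means.

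A limma model (3.58.1, R 4.3.3) with a mean per tissue was fitted to the 96 Air arrays, and p-values were adjusted over all probe sets by Benjamini-Hochberg at 0.05. The strict test took the largest of 5 one-sided p for lung over each tissue by more than 1 log2 unit. Models over times used F tests, and PH3 and Air lungs were compared at each time. Precision is limited by the number of arrays. Replicates were separate rats.

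The members and gene lists were chosen with earlier results of these data known. Named were the 24 genes with the largest gaps and no overlap, up to 10 low genes, 5 members per list, all members of 4 lists, and the genes steadiest, most variable or most changed with time, with the 6 most like Sftpc as a description. Rat numbers pair tissues of 1 animal. Deviations of lung and another tissue of the same rat correlated at a median of 0.105 over 66 pairs, with 34 above 0.1. Alternatives covered scaling, dim probe sets, single times, tissues or arrays left out, a replicate block, RNA quality and separate variances.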

Additional observations from a re-analysis of the deposited data

Results flagged for a closer look

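The difference of lung from the mean of the other tissues varied between the Air times for 13 named genes by limma's F test, adjusted over all probe sets. For Ttr and Nit2, 1 lung array stood apart in a group of 4.

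Among genes that mark lung, the adjusted p was 4.4e-06 for the amino acid carrier Slc6a14, which averaged 7.46, 7.39, 8.14 and 8.20 in lung at 1, 3, 6 and 24 h. It was 5.7e-05 for the mast cell protease Mcpt10, with 5.89, 4.30, 5.92 and 6.25. It was 0.0177 for the chitinase Chia, 0.0295 for Aoc1, 0.0315 for the phospholipase Pla2g1b, 0.0372 for Col13a1, 0.0379 for Cav2 and 0.0417 for Nkx2-1. Mast cell, lymphocyte and neutrophil genes followed, with 0.00226 for the carboxypeptidase Cpa3, 0.00162 for the granzyme Gzma, 0.0400 for the perforin Prf1 and 0.0326 for S100a8. The glutathione transferase Mgst3, which was lower in lung than the mean of the others, had 0.000913.

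At 3 h lung was lowest of the 4 times for Slc6a14, Mcpt10, Gzma, Prf1, S100a8, Cpa3, Pla2g1b, Aoc1, Col13a1, Cav2 and Mgst3, and highest for Nkx2-1 and Chia. The 3′ minus 5′ difference of the control probe sets was also highest at 3 h, 0.343 to 0.521 in the 4 lungs, against 0.078 to 0.363 in the 12 lungs of the other times.

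The lung of Rat365 at 3 h had transthyretin (Ttr) at 3.67, apart from the other 3 lungs of that time, and the lung of Rat388 at 6 h had Nit2 at 8.15. These were 2 of 16 groups looked at, and a chance rate of about 1 in 20 is assumed here and was not tested. Both genes had been named for their small p between times, so the groups are not a neutral set. The other Ttr levels at 3 h were 3.22 to 3.29, so all lungs of that time lay near the floor for this gene.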

How the results depend on the processing

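The cause of each shift was not tested, apart from what leaving out samples, tissues or probe sets itself does. The 26008 calls against the mean, of 31042 tested, became 13267 of 15521 when only the brighter 50% of probe sets were tested. These counts fell with the number tested, so they do not show a smaller share. The 542 above each other tissue became 305 there, 314 to 371 at single times alone, 985 without blood, 943 without heart, 855 without kidney, 174 at a 4-fold minimum and 2816 with none. The 9 below each became 19 with array medians subtracted, 16 after quantile normalization, 1 to 3 at single times, 127, 54, 41 and 15 without blood, heart, kidney or olfactory bulb, 1 at 4-fold and 567 with no minimum. With array medians subtracted, 37.5% of calls were higher in lung, with quantile normalization 42.3% and among brighter probe sets 64.5%, against 44.0%. Leaving out 1 lung gave 533 to 554 above each and 8 to 10 below each. With rats as a replicate block the counts were 26061, 545 and 10, and no named gene reversed under this pairing.

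The differences between times became 201 with RNA quality as a covariate and 198 to 411 without 1 lung (198 without Rat355). The 1882 within lung became 1 and 794 to 2366: 982, 794, 1065, 1250, 1077, 1051 and 895 without Rat335, Rat355, Rat365, Rat382, Rat388, Rat400 and Rat502. For PH3 minus Air, 1317 at 1 h became 1372 and 769 to 1488 (769 without PH3 Rat343, 863 without Air Rat352). The 3071 at 3 h became 4 and 1356 to 3265 (1356, 1876 and 1739 without PH3 Rat368, PH3 Rat361 and Air Rat355). At 6 h the 0 became 1 and 0 to 0, and at 24 h 0 and 0 to 3 (3 without Air Rat340).

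Among values of named genes under alternatives, 8010 kept direction and call, 54 lost the call and 1 gained it (C5 without kidney, 0.756). The 14 that reversed left out a tissue. Without blood these were Tff2 0.0017, Ppbp 0.223, Cldn10 -0.259, Itga2b 0.584, Klf1 0.153, Epb42 0.320, Rhag 0.108, Slc4a1 0.353 and Gp9 0.755, without heart Cldn10 -0.428, and without kidney Nit2 0.0376, Dapl1 0.146, Upk3a 0.0316 and Aqp3 0.476.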

Other observations

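Further lung-marking genes, grouped by known role after their values were seen and with no test of the groups, are given by the distance of the lung mean from the next-highest tissue mean, in log2 units. Genes of motile cilia beyond the ciliated cell list had gaps of 4.88 for Cfap144, 4.05 for Spaca9, 3.81 for the dynein light chain Dynlrb2 and 2.77, 2.28 and 1.95 for the tektins Tekt2, Tekt4 and Tekt3. Complement genes and regulators had gaps of 3.48 for C4bpa, whose highest other array read 10.22, 3.44 for Cfb, which the airway defence list also holds, 2.65 for C2 and 2.28 for Cd55, a brake on complement. In the BMP pathway, the inhibitors Smad6 and Smad7 had gaps of 3.16 and 1.37, the ligands Bmp5 and Bmp6 2.55 and 1.51, and the target Id1 1.43.

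Single genes of interest were Wif1, an inhibitor of Wnt ligands, with a gap of 4.63, Gpx2, a glutathione peroxidase, with 4.02, the surfactant-associated Sfta2 with 3.97, the eosinophil attractant Ccl11 with 3.95, the prostaglandin carrier Slco2a1 with 3.74, the adhesion molecule Icam1 with 3.57, the lymphatic receptor Lyve1 with 2.42, the hypoxia factor Epas1 with 2.27 and the stretch channel Piezo1 with 2.09. The fibrinogen chain Fgg had a gap of 4.16, while its highest other array, a heart, read 12.04. Of the 346 lung-marking genes 96 stood in at least 1 list and 250 in none, and 122 lung-marking probe sets had no single gene name, with gaps up to 7.44.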
